A study of Mus musculus with 28 samples.

Results

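Matrix metalloproteinases (MMPs), the ADAM and ADAMTS metalloproteinases and the 4 tissue inhibitors of metalloproteinases (TIMPs) were followed in injured and uninjured mouse cortex, as 75 genes out of 30689 that the array measured with a named row. The 75 were every gene whose symbol is Mmp, Timp, Adam or Adamts followed by a number and that had a row naming no other gene. They comprised 22 MMPs, 4 TIMPs, 31 ADAMs and 18 ADAMTS genes, each with 1 row (a transcript cluster, the set of probes that reads 1 gene). A further 3 rows listed a gene of these families together with other genes and were left out.

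The groups were KO CCI, KO sham, WT CCI and WT sham, with 7 mice in each, aged 12 to 15 weeks. By the title of the series, KO mice were knockouts of Rbm5, a gene for an RNA-binding protein that regulates splicing. WT mice were wild type. CCI mice had a craniotomy over the left parietal cortex and a controlled cortical impact at 6 m/s to a depth of 1.2 mm, whereas sham mice had anaesthesia alone, so the craniotomy and the impact cannot be told apart. Cortical tissue was taken at 48 h, after perfusion with saline. Sex was mixed in every group, with 3 males and 4 females in KO CCI, WT CCI and WT sham and 4 males and 3 females in KO sham. All values are log2 signal, and a gene was called at a limma adjusted p under 0.05 over all 65956 tested rows.

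Metalloproteinases are zinc-dependent enzymes that cut proteins outside the cell. MMPs and the secreted ADAMTS enzymes cut extracellular matrix, including the proteoglycan nets around neurons and the basement membrane of brain vessels, while ADAMs sit in the plasma membrane and release the outer parts of cytokines, growth factors and adhesion molecules. TIMPs bind the active site of these enzymes, most are made as inactive precursors, and several ADAMs of the brain have no catalytic activity and act as receptors instead.

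The Rbm5 row separated the genotypes, with 9.66 to 9.84 in all KO arrays together and 10.59 to 10.82 in all WT arrays. Cortical neuron markers averaged between 12.1 and 12.7 on every array. However, 7 arrays stood apart by their markers of striatum (list mean above 9) or choroid plexus (list mean above 7): KO CCI replicates 22 and 40, WT CCI replicates 13, 14, 16 and 35, and WT sham replicate 25. For each member whose call changed without these 7 arrays, both values are given. In bulk tissue, fewer cells of a type and less RNA per cell cannot be told apart. Over the 75 genes, the median SD within a group was 0.108 in KO CCI, 0.083 in KO sham, 0.110 in WT CCI and 0.088 in WT sham, and the widest spread in both injured groups was that of Timp1 (SD 0.424 in KO CCI and 0.667 in WT CCI).

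Injured and sham cortex were compared in each genotype separately. After injury the inhibitor Timp1, the aggrecanase Adamts1 and the leukocyte protease Adam8 were more than 2-fold higher in both genotypes, and the neuronal receptor Adam23 was lower. In KO, 22 of the 75 genes were called (16 higher and 6 lower), where 16.7% of all rows were called, 8.43% higher and 8.27% lower. In WT, 22 were called as well (18 higher and 4 lower), where 16.8% of all rows were, 8.86% higher and 7.96% lower. Against genes with a named row only, the background was 21.2% in KO and 22.2% in WT. The median log2 change of the 75 was 0.02 in KO and -0.01 in WT, beside 0.01 and -0.02 over all rows. At an unadjusted p under 0.05 the counts were 31 in KO and 27 in WT.

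The called genes were then compared between the genotypes. Of the 22 called in each genotype, 20 were called in the same direction in the other. The same share was not counted over all rows, and 0% of all rows were called in the difference of the injury changes. The sharing is thus not shown to be particular to these genes. Those higher in both were Timp1, Timp2, Timp4, Mmp3, Mmp8, Mmp9, Mmp12, Mmp14, Mmp19, Adam8, Adam9, Adam10, Adam15, Adam17, Adamts1 and Adamts9, 16 in all. The 4 lower in both were Adam22, Adam23, Adam33 and Adamts20. Adam11 and Adam18 were called in KO alone, both lower, and Adamts4 and Adamts6 in WT alone, both higher. Adamts6 stood at the threshold in WT (log2 change 0.23, SE 0.08, adjusted p = 0.0496) and was not called without the 7 arrays with other-tissue signal (0.11, SE 0.07, adjusted p = 0.371). In WT, Adam3 (0.21, adjusted p = 0.0235) and Adam4 (-0.40, adjusted p = 0.0407) were called only without those arrays. With all arrays the WT change was 0.09 for Adam3 (adjusted p = 0.275) and -0.16 for Adam4 (adjusted p = 0.36). Adamts6, Adam3 and Adam4 are singled out here after their values were seen. The other 51 genes were called in neither.

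Many of the genes gave a low signal. On all 28 arrays, 42 of the 75 genes lay below the array's own median, a level at which the files do not show whether a signal stands above background. Of these 42, 4 were called after injury (Mmp8, Mmp9, Mmp12 and Mmp19), where 16.7% of all rows were called in KO and 16.8% in WT. Calls among the other 33 cannot be set against these, because a gene could enter the 33 through its rise after injury. Timp1 lay above the array median on 14 arrays, with no sham value over 5.21, and Mmp3 on 1, WT CCI replicate 35. The 42 included Adam2, Adam3, Adam5, Adam24, Adam29 and Adam30, members of the ADAM branch known mainly from testis and sperm. The array medians ran from 5.79 to 5.90.

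**Figure D1:**
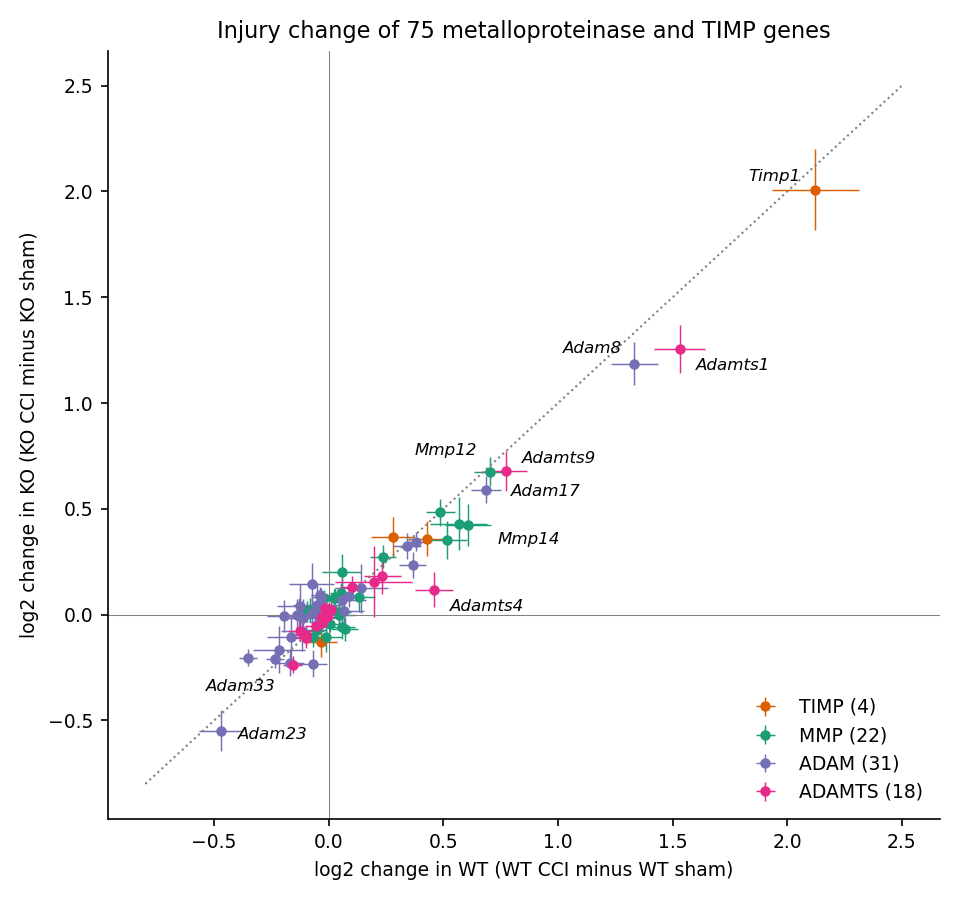
Log2 change with injury in KO (vertical axis, KO CCI minus KO sham) against that in WT (horizontal axis, WT CCI minus WT sham) for the 75 genes, coloured by family, with bars for the SE and a dotted line where both are equal. Timp1 lies farthest out at 2.01 in KO and 2.12 in WT, Adamts1 and Adam8 follow, and the 51 genes called in neither genotype gather around zero.

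Of the 4 inhibitors, 3 rose in both genotypes, where 8.43% of all rows were higher in KO and 8.86% in WT. Timp1, the secreted TIMP that is known as the inducible one in injured tissue, had the largest change of all 75 genes. Its lowest, median and highest log2 signals were 6.49, 6.94 and 7.73 in KO CCI, against 4.60, 5.07 and 5.21 in KO sham. In WT CCI they were 6.50, 6.94 and 8.28, against 4.86, 5.04 and 5.18 in WT sham. All 14 injured arrays thus lay above all 14 sham arrays, and the sham values were below 5.79, the lowest array median. Timp1 was 4.02-fold higher in KO (log2 change 2.01, SE 0.19, limma adjusted p = 1.23e-08) and 4.36-fold higher in WT (log2 change 2.12, SE 0.19, adjusted p = 2.34e-09). The difference between the 2 changes was -0.11 (SE 0.27, adjusted p = 0.964). The size of the Timp1 change varied with the number in the sample title, which the labels do not call a batch. Within title numbers 1 to 24 it was 1.85 in KO and 1.66 in WT, and within 25 to 42 it was 2.16 in KO and 2.74 in WT. In WT CCI the 4 arrays of the first run (highest 6.945) all lay below the 3 of the second (lowest 7.329). In KO CCI the runs overlapped, with 6.657 to 7.238 in the first and 6.487 to 7.728 in the second.

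Timp4, an inhibitor of the brain and heart, had log2 signals of 8.54, 8.84 and 9.09 in KO CCI (lowest, median, highest), against 8.22, 8.49 and 8.57 in KO sham. The values were 8.58, 8.78 and 8.91 in WT CCI, against 8.11, 8.29 and 8.50 in WT sham. The groups overlapped in KO and did not in WT. It rose 1.28-fold in KO (log2 change 0.36, SE 0.08, adjusted p = 0.00208) and 1.34-fold in WT (0.43, SE 0.08, adjusted p = 2.81e-04). Within title numbers 25 to 42 the Timp4 change in KO was 0.14 (adjusted p = 0.571).

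Timp2, which besides inhibiting MMPs takes part in the activation of pro-MMP2 on the cell surface, had signals of 11.40, 11.84 and 12.27 in KO CCI, against 11.35, 11.48 and 11.55 in KO sham. In WT CCI they were 11.55, 11.74 and 11.98, against 11.27, 11.35 and 11.75 in WT sham. Both pairs of groups overlapped. The change was 1.29-fold in KO (log2 0.37, SE 0.09, adjusted p = 0.0062) and 1.21-fold in WT (0.28, SE 0.09, adjusted p = 0.0401). The WT call was lost when any of 9 single arrays was left out (WT CCI replicates 13, 15, 34 or 36, or WT sham replicates 1, 3, 4, 26 or 27; adjusted p up to 0.107), whereas without the 7 arrays with other-tissue signal the WT change was 0.46 (adjusted p = 0.00224).

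Timp3, the matrix-bound TIMP that also inhibits ADAM17 and the aggrecanases, was not called. Its signals were 7.68, 7.79 and 7.90 in KO CCI, against 7.69, 7.95 and 8.12 in KO sham, and 7.72, 7.99 and 8.20 in WT CCI, against 7.91, 7.96 and 8.23 in WT sham. The log2 change was -0.13 in KO (SE 0.07, adjusted p = 0.259) and -0.04 in WT (SE 0.07, adjusted p = 0.817).

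In the RefSeq annotation, Timp1, Timp4 and Timp3 each lie inside a synapsin gene, Syn1 on chromosome X, Syn2 on chromosome 6 and Syn3 on chromosome 10. None of the hosts rose. Syn1 fell by 0.31 on the log2 scale in KO (adjusted p = 0.00989), with -0.19 in WT (adjusted p = 0.14), while Syn2 had log2 changes of 0.15 in KO and 0.08 in WT, and Syn3 of -0.15 in KO and -0.12 in WT, none of them called.

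**Figure D2:**
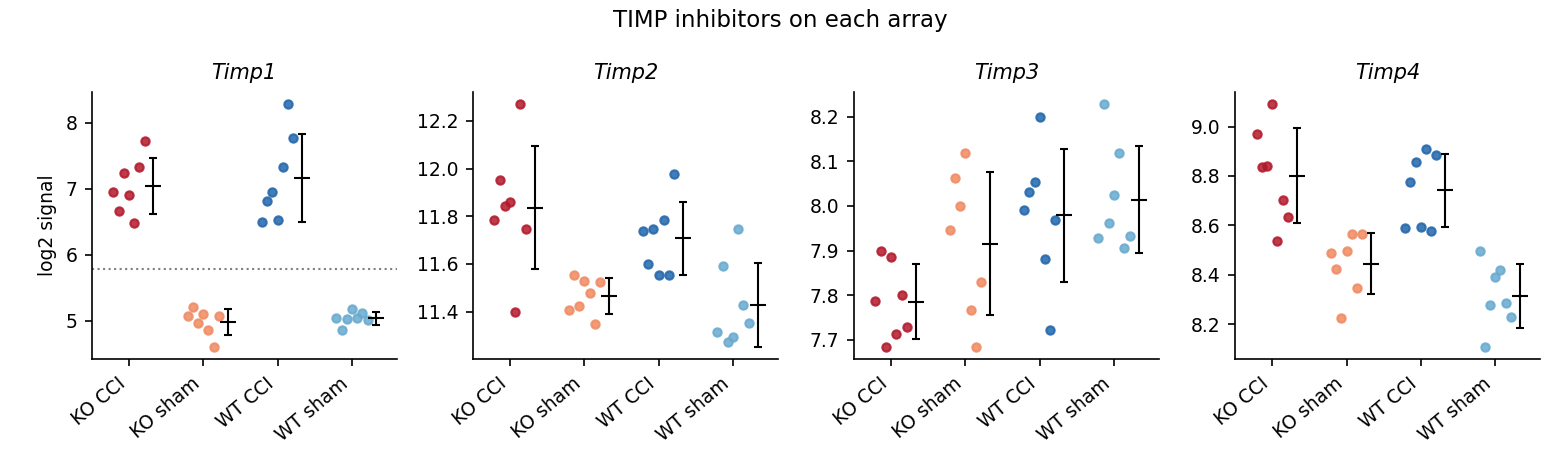
Log2 signal of the 4 TIMP genes on each of the 28 arrays (points, 7 per group), with the mean and SD beside each group and a dotted line at 5.79, the lowest array median, where it falls in the range. Timp1 separates injured from sham arrays, Timp4 and Timp2 rise by less, and the Timp3 groups overlap.

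Among the 22 MMPs, 6 rose in each genotype and none fell, where 8.43% of all rows were higher in KO and 8.86% in WT. The 6 were the macrophage elastase Mmp12, the stromelysin Mmp3, the collagenase Mmp8, the gelatinase Mmp9, Mmp19 and the membrane-type enzyme Mmp14. The gelatinase Mmp2 and the collagenase Mmp13 were not called.

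Mmp12 had log2 signals of 5.14, 5.39 and 5.58 in KO CCI (lowest, median, highest), against 4.61, 4.72 and 4.99 in KO sham. They were 5.16, 5.53 and 5.58 in WT CCI, against 4.73, 4.76 and 4.84 in WT sham. Injured and sham arrays did not overlap in either genotype, and all were below the array medians. Mmp12 was 1.60-fold higher in KO (log2 change 0.68, SE 0.07, adjusted p = 5.46e-08) and 1.63-fold higher in WT (0.70, SE 0.07, adjusted p = 1.48e-08).

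Mmp14 anchors at the cell surface, cuts collagen and activates pro-MMP2. Its signals were 7.05, 7.28 and 7.72 in KO CCI, against 6.82, 6.90 and 7.05 in KO sham, and 7.17, 7.49 and 7.71 in WT CCI, against 6.62, 6.84 and 7.21 in WT sham. The ranges overlapped at their edges in both genotypes. It rose 1.34-fold in KO (log2 0.42, SE 0.10, adjusted p = 0.00307) and 1.53-fold in WT (0.61, SE 0.10, adjusted p = 4.23e-05). Within title numbers 25 to 42 the Mmp14 change in KO was 0.27 (adjusted p = 0.282).

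Mmp3, which cuts matrix and activates pro-MMP9, had signals of 4.96, 5.31 and 5.35 in KO CCI, against 4.64, 4.69 and 5.001 in KO sham, and 5.10, 5.25 and 6.36 in WT CCI, against 4.77, 4.81 and 4.98 in WT sham. Groups overlapped in KO and not in WT. The change was 1.35-fold in KO (log2 0.43, SE 0.13, adjusted p = 0.0174) and 1.48-fold in WT (0.57, SE 0.13, adjusted p = 0.0016). The highest WT CCI value came from replicate 35, 1 of the 7 arrays with other-tissue signal. Without replicate 35 the Mmp3 change in WT was 0.41 (SE 0.08, adjusted p = 2.75e-04), and without all 7 it was 0.48 (adjusted p = 0.00245). The Mmp3 change in KO was 0.27 within title numbers 1 to 24 (adjusted p = 0.0926) and 0.65 within 25 to 42 (adjusted p = 0.184).

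Mmp8, the collagenase known from neutrophil granules, had signals of 4.50, 4.62 and 5.19 in KO CCI, against 4.16, 4.34 and 4.53 in KO sham, and 4.50, 4.86 and 5.09 in WT CCI, against 4.21, 4.35 and 4.47 in WT sham. It rose 1.28-fold in KO (log2 0.35, SE 0.09, adjusted p = 0.0055) with overlapping groups and 1.43-fold in WT (0.52, SE 0.09, adjusted p = 8.46e-05) without overlap. The Mmp8 change in KO was 0.29 within title numbers 1 to 24 (adjusted p = 0.104) and 0.42 within 25 to 42 (adjusted p = 0.127).

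Mmp9, the gelatinase known for opening the blood-brain barrier, had signals of 4.85, 4.93 and 5.06 in KO CCI, against 4.57, 4.70 and 4.73 in KO sham, and 4.84, 4.93 and 5.15 in WT CCI, against 4.61, 4.76 and 4.87 in WT sham. The rise was 1.21-fold in KO (log2 0.27, SE 0.06, adjusted p = 6.77e-04), where the groups did not overlap, and 1.18-fold in WT (0.24, SE 0.06, adjusted p = 0.0026), where they did. The Mmp9 change in WT was 0.13 within title numbers 1 to 24 (adjusted p = 0.349) and 0.39 within 25 to 42 (adjusted p = 0.0123). Mmp19, a basement membrane protease, was 1.40-fold higher in each genotype (adjusted p = 2.54e-06 in KO and 1.35e-06 in WT), with no overlap in either.

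Mmp2 is the gelatinase that brain tissue makes constitutively, and its median was 5.13 in KO CCI, against 4.995 in KO sham, and 5.12 in WT CCI, against 5.05 in WT sham (log2 change 0.10, adjusted p = 0.181 in KO, and 0.05, adjusted p = 0.533 in WT). Mmp13 had a log2 change of 0.20 in KO (adjusted p = 0.111) and 0.06 in WT (adjusted p = 0.746). The Mmp13 change in KO was called when KO sham replicate 33 was left out (adjusted p = 0.0205) and was 0.11 without KO CCI replicate 22 (adjusted p = 0.332).

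Markers of blood-borne and resident phagocytes moved with these proteases, where 8.43% of all rows were higher in KO and 8.86% in WT. Of 10 neutrophil markers, 4 rose in KO and 5 in WT, S100a8 by a log2 change of 2.60 in KO and 2.49 in WT, while the granule genes Ngp, Camp, Ltf, Elane and Mpo were not called in either. The mean of the 10 ranged from 5.18 to 5.62 in KO CCI, against 4.79 to 4.93 in KO sham, and from 5.31 to 5.97 in WT CCI, against 4.87 to 5.46 in WT sham. Of 6 monocyte markers, 5 rose in KO and all 6 in WT, and their mean ranged from 6.82 to 7.67 in KO CCI, against 5.89 to 6.14 in KO sham, and from 7.03 to 7.88 in WT CCI, against 5.95 to 6.12 in WT sham. Of 8 microglia and macrophage markers, 6 rose in each genotype, with means of 8.25 to 8.94 in KO CCI, against 7.33 to 7.56 in KO sham, and 8.23 to 9.16 in WT CCI, against 7.22 to 7.37 in WT sham. The group means of Ngp, Elane and Mpo lay between 3.92 and 4.33, below every array median. No value in the table was 0, and their part in the protease changes was not tested.

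Of the 6 MMPs that rose, Mmp3, Mmp8 and Mmp12 belong to a run on mouse chromosome 9 in which 10 consecutive protein-coding genes are all MMPs: Mmp13, Mmp12, Mmp1b, Mmp3, Mmp1a, Mmp10, Mmp8, Mmp27, Mmp20 and Mmp7. The other 7 of the run were not called in either genotype. AP-1, the Fos and Jun dimer, is a known activator of several MMP promoters, and its letters TGANTCA (both strands, which read the same) were searched for in the 250 bases before each gene's start in RefSeq. Of the 75 genes, 46 had a promoter in the table, and 12 of these 46 (26.1%) held the letters, against 7.82% of all 27025 genes and 6.75% of all 32851 promoters. Within the chromosome 9 run 8 of 10 held them, and only Adam19, Adam20, Adam25 and Adam29 did so outside it. Among the genes that rose in both genotypes and had a promoter in the table, 2 of 13 (15.4%) held the letters, Mmp3 and Mmp12, against 10 of the other 33 (30.3%). The 120 bases before the start are shown for called and uncalled neighbours of the run and for the 2 genes with the largest rise, with the AP-1 letters in capitals (RefSeq, GRCm38.p6).
Mmp3 (called, + strand, chr9:7445702-7445821): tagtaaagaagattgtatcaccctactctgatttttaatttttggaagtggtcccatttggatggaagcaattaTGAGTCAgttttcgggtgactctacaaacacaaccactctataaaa
Mmp12 (called, + strand, chr9:7347254-7347373): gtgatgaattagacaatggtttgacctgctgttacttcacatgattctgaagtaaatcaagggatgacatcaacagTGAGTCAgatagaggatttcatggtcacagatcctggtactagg
Mmp8 (called, + strand, chr9:7558309-7558428): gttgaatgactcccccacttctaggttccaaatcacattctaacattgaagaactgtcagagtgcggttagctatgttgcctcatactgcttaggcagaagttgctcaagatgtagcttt
Mmp13 (not called, + strand, chr9:7272394-7272513): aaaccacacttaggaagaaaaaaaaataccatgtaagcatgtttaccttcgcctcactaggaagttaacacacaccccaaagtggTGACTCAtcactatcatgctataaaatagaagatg
Mmp10 (not called, + strand, chr9:7502222-7502341): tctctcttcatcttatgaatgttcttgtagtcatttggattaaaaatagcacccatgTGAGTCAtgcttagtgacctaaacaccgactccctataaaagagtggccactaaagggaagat
Timp1 (called, + strand, chrX:20870046-20870165): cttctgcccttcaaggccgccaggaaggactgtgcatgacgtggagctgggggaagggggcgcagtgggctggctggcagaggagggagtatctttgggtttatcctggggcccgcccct
Adamts1 (called, - strand, chr16:85803114-85803233): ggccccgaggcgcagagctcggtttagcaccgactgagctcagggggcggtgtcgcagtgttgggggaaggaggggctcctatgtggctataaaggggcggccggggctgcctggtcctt
The letters stood 46 bases before the start in Mmp3, 44 in Mmp12, 35 in Mmp13 and 63 in Mmp10. Mmp8, Timp1 and Adamts1 do not hold them in these windows. Mmp12 has 2 starts in the table, and the window shown is that of the start with the letters. Called and uncalled genes of the run thus both carry the letters, which describes these windows and not binding.

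Among the 18 ADAMTS genes, secreted proteases with thrombospondin repeats, 2 rose and 1 fell in KO, and 4 rose and 1 fell in WT, counts to be read against the 16.7% and 16.8% of all rows called. Adamts1, which cuts aggrecan and versican, had log2 signals of 7.20, 7.73 and 8.08 in KO CCI (lowest, median, highest), against 6.11, 6.49 and 6.60 in KO sham. In WT CCI they were 7.60, 8.01 and 8.32, against 6.26, 6.46 and 6.56 in WT sham. Every injured array exceeded every sham array. Adamts1 was 2.39-fold higher in KO (log2 change 1.25, SE 0.11, adjusted p = 5.51e-09) and 2.89-fold higher in WT (1.53, SE 0.11, adjusted p = 7.03e-11).

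Adamts9, another versican-cutting enzyme, had signals of 6.73, 6.89 and 7.30 in KO CCI, against 6.10, 6.32 and 6.48 in KO sham, and 6.76, 7.03 and 7.49 in WT CCI, against 6.14, 6.28 and 6.45 in WT sham. It rose 1.60-fold in KO (log2 0.68, SE 0.09, adjusted p = 5.48e-06) and 1.71-fold in WT (0.77, SE 0.09, adjusted p = 4.32e-07), without overlap in either.

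Adamts4, an aggrecanase that cuts brevican, had signals of 6.32, 6.64 and 6.76 in KO CCI, against 6.38, 6.48 and 6.58 in KO sham, and 6.56, 6.78 and 7.07 in WT CCI, against 6.14, 6.23 and 6.62 in WT sham. The groups overlapped in both genotypes. Its log2 change was 0.12 in KO (SE 0.08, adjusted p = 0.406) and 0.46 in WT (SE 0.08, adjusted p = 1.58e-04). The difference between these changes was -0.34 (SE 0.12, unadjusted p = 0.00749, adjusted p = 0.779) and was not called. Within title numbers 1 to 24 the Adamts4 change in WT was 0.31 (adjusted p = 0.0814). Oligodendrocyte markers moved alongside, with 1 of 6 higher in KO and 5 of 6 in WT, and means of 10.08 to 11.28 in KO CCI, against 10.44 to 11.02 in KO sham, and of 11.04 to 11.28 in WT CCI, against 10.11 to 10.64 in WT sham. Their part in the Adamts4 values was not tested.

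The other aggrecanase, Adamts5, had a log2 change of 0.13 in KO (adjusted p = 0.0723) and 0.10 in WT (adjusted p = 0.198). It was called in KO without WT sham replicate 2 or without KO CCI replicate 23. Adamts20, a versican-cutting enzyme known from mouse pigment cell development, fell by 0.24 on the log2 scale in KO (adjusted p = 8.96e-05) and by 0.16 in WT (adjusted p = 0.00534). The Adamts20 change in WT was -0.13 within title numbers 1 to 24 (adjusted p = 0.177) and -0.19 within 25 to 42 (adjusted p = 0.194).

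Among the 31 ADAMs, 5 rose and 5 fell in KO, and 5 rose and 3 fell in WT. These counts are to be read against the 16.7% of all rows called in KO and 16.8% in WT. The 5 that rose were Adam8, Adam9, Adam10, Adam15 and Adam17 in each genotype, all of them catalytically active proteases, and those that fell included the inactive neuronal receptors.

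Adam8, a protease of leukocytes and activated microglia, had log2 signals of 6.65, 6.94 and 7.23 in KO CCI, against 5.66, 5.72 and 5.83 in KO sham. They were 6.76, 6.94 and 7.59 in WT CCI, against 5.69, 5.75 and 5.84 in WT sham. No injured array overlapped the sham arrays. Adam8 was 2.28-fold higher in KO (log2 change 1.19, SE 0.10, adjusted p = 2.70e-09) and 2.52-fold higher in WT (1.33, SE 0.10, adjusted p = 1.47e-10).

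Adam17, the enzyme that releases tumour necrosis factor and ligands of the EGF receptor, had signals of 8.17, 8.44 and 8.56 in KO CCI, against 7.70, 7.80 and 7.92 in KO sham, and 8.23, 8.50 and 8.62 in WT CCI, against 7.68, 7.78 and 7.84 in WT sham. It rose 1.51-fold in KO (log2 0.59, SE 0.07, adjusted p = 1.70e-07) and 1.61-fold in WT (0.69, SE 0.06, adjusted p = 6.93e-09), and neither pair of groups overlapped. Adam10, the main alpha-secretase of neurons, had medians of 12.59 in KO CCI, against 12.34 in KO sham, and 12.59 in WT CCI, against 12.25 in WT sham, and its groups overlapped in KO and not in WT. Its rise was 1.18-fold in KO (log2 0.24, SE 0.06, adjusted p = 0.00613) and 1.29-fold in WT (0.37, SE 0.06, adjusted p = 4.35e-05). The Adam10 change in KO was 0.22 within title numbers 1 to 24 (adjusted p = 0.0812) and 0.27 within 25 to 42 (adjusted p = 0.16).

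Adam9, a widely expressed sheddase, rose 1.27-fold in KO (log2 0.34, SE 0.05, adjusted p = 2.49e-06) and 1.30-fold in WT (0.38, SE 0.04, adjusted p = 3.09e-07). Adam15, a protease with an integrin-binding domain, rose 1.25-fold in KO (0.32, SE 0.06, adjusted p = 3.37e-04) and 1.27-fold in WT (0.34, SE 0.06, adjusted p = 1.30e-04). Within title numbers 25 to 42 the Adam15 change in KO was 0.15 (adjusted p = 0.406). Injured and sham arrays of both genes did not overlap in either genotype. Over the 75 genes, groups did not overlap for 14 in KO (18.7%, against 6.38% of all rows) and for 16 in WT (21.3%, against 7.26% of all rows), where 16.7% and 16.8% of all rows were called.

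**Figure D3:**
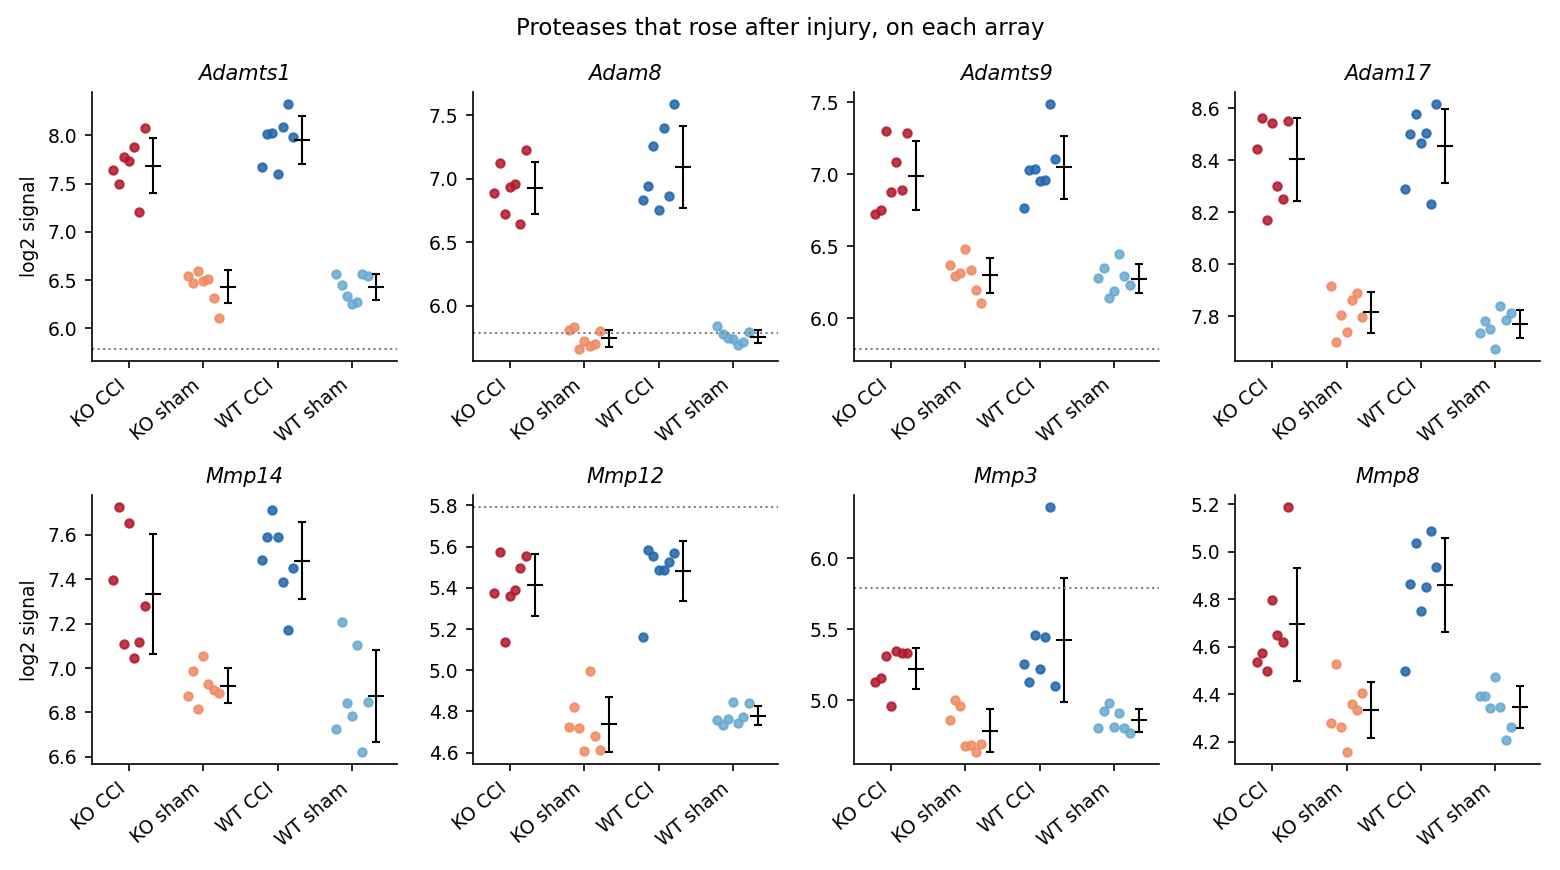
Log2 signal of 8 proteases that rose after injury in both genotypes, on each array (points, 7 per group), with the mean and SD beside each group and a dotted line at 5.79, the lowest array median, where it falls in the range. Adamts1 and Adam8 show the widest gaps, while the Mmp12, Mmp8 and nearly all Mmp3 values stay below the line.

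Adam23 and Adam22 are inactive ADAMs of the neuronal surface that bind the secreted protein LGI1 and through it organise synapses and potassium channels. Adam23 had signals of 11.66, 11.90 and 12.20 in KO CCI, against 12.27, 12.42 and 12.57 in KO sham, and 11.72, 12.15 and 12.52 in WT CCI, against 12.36, 12.68 and 12.74 in WT sham. The groups overlapped in WT and not in KO. It fell by 0.55 on the log2 scale in KO (SE 0.10, adjusted p = 1.64e-04) and by 0.47 in WT (SE 0.10, adjusted p = 7.41e-04). Without the 7 arrays with other-tissue signal the log2 changes of Adam23 were -0.61 in KO and -0.73 in WT.

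Adam22 had signals of 12.71, 12.79 and 12.88 in KO CCI, against 12.92, 12.99 and 13.16 in KO sham, and 12.62, 12.72 and 12.78 in WT CCI, against 12.85, 12.94 and 12.99 in WT sham. It fell by 0.21 in KO (SE 0.04, adjusted p = 3.51e-04) and by 0.23 in WT (SE 0.04, adjusted p = 7.11e-05), with no overlap in either. Adam11, the third inactive member, fell by 0.23 in KO (SE 0.06, adjusted p = 0.0112) but was not called there without the 7 arrays (-0.16, adjusted p = 0.0775) or within title numbers 1 to 24 (-0.12, adjusted p = 0.355) and 25 to 42 (-0.38, adjusted p = 0.0961), and it had a log2 change of -0.17 in WT (adjusted p = 0.0619).

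The partner genes of these receptors were counted beside them, where 16.7% of all rows were called in KO and 16.8% in WT. Of 8 genes (LGI ligands, the scaffold Dlg4, AMPA receptor and potassium channel subunits), 5 fell and 1 rose in KO, and 5 fell and 2 rose in WT, with a median log2 change of -0.30 in KO and -0.36 in WT. Lgi2 fell by 0.73 in KO and 0.62 in WT on the log2 scale, and Lgi1 by 0.34 and 0.51. Cacng2, an AMPA receptor auxiliary subunit, fell by 0.66 in KO and 0.49 in WT, and the potassium channel Kcna2 by 0.58 and 0.50. Lgi4 rose in both genotypes. Cortical neuron markers fell as well, 6 of 9 in KO and 5 of 9 in WT, and their mean ranged from 12.14 to 12.35 in KO CCI, against 12.53 to 12.70 in KO sham, and from 12.10 to 12.40 in WT CCI, against 12.45 to 12.56 in WT sham. Their part in the fall of the ADAM receptors and partners was not tested.

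**Figure D4:**
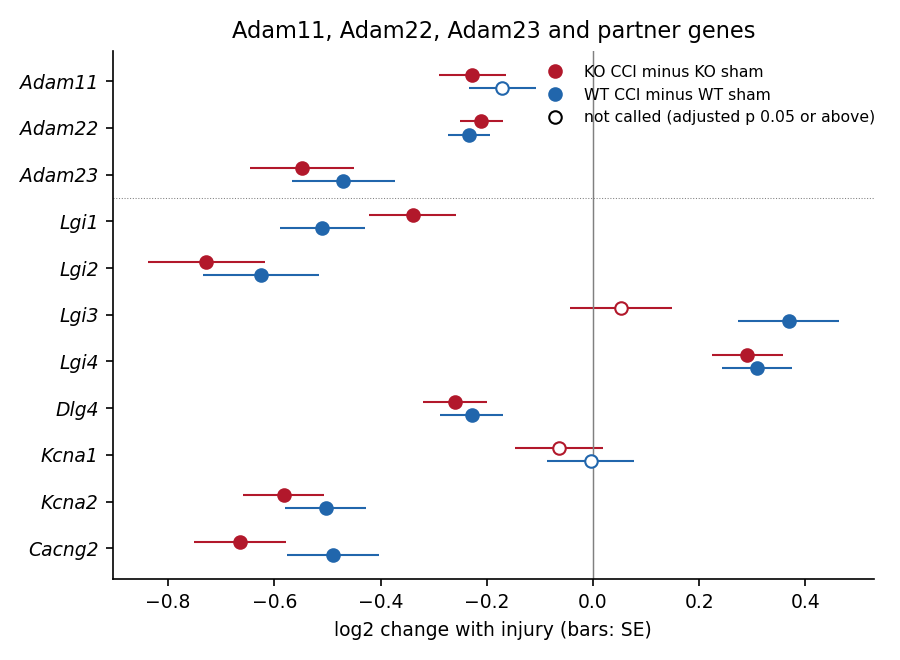
Log2 change with injury of Adam11, Adam22 and Adam23 (above the dotted line) and of 8 partner genes (below it) in KO and WT, with bars for the SE and open circles where the change was not called. Adam23, Lgi2, Cacng2 and Kcna2 fell by 0.47 to 0.73 in both genotypes, while Lgi4 rose.

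Adam33, an ADAM named in human asthma susceptibility, had signals of 5.92, 5.99 and 6.03 in KO CCI, against 6.13, 6.16 and 6.24 in KO sham, and 5.91, 6.02 and 6.15 in WT CCI, against 6.25, 6.38 and 6.54 in WT sham. It fell by 0.20 in KO (SE 0.04, adjusted p = 5.18e-04) and by 0.35 in WT (SE 0.04, adjusted p = 1.64e-07), without overlap in either. The Adam33 change in KO was -0.18 within title numbers 1 to 24 (adjusted p = 0.0627) and -0.22 within 25 to 42 (adjusted p = 0.146). Adam18, known from sperm, fell by 0.23 in KO (SE 0.06, adjusted p = 0.00988) and had a log2 change of -0.07 in WT (adjusted p = 0.539). The Adam18 change in KO was -0.19 within title numbers 1 to 24 (adjusted p = 0.124) and -0.28 within 25 to 42 (adjusted p = 0.233).

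Genes that activate, inhibit or are cut by these proteases were counted from lists chosen by function. The counts here and in the next paragraph are to be read against the shares called overall. In KO 16.7% of all rows and 21.2% of genes with a named row were called, and in WT 16.8% and 22.2%. Of 17 activators and cell-surface partners, 9 rose and none fell in each genotype. Cd44, a hyaluronan receptor that docks MMPs, was 4.04-fold higher in KO and 3.98-fold in WT, and the protease Klk6 3.92-fold and 3.24-fold. The tetraspanins Cd9 and Cd151, which organise membrane proteases, were 2.78-fold and 1.87-fold higher in KO and 3.23-fold and 2.34-fold higher in WT. Of 14 other inhibitors and binding proteins, 5 rose and 3 fell in KO, and 6 rose and 1 fell in WT. A2m, a broad protease trap, was 10.1-fold higher in KO and 13.9-fold in WT. Lcn2, which binds MMP9 rather than inhibiting it, was 13.95-fold higher in KO and 13.3-fold in WT, and the matricellular protein Thbs1 3.74-fold and 3.60-fold. Spock1, a proteoglycan that blocks MMP activation, fell by 0.56 on the log2 scale in each.

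Of 12 regulators of ADAM10 and ADAM17, 4 rose and 2 fell in KO, and 7 rose and 1 fell in WT. Frmd8, which stabilises the ADAM17 complex, was 1.21-fold higher in KO and 1.25-fold in WT, and the ADAM10 partner Tspan15 1.18-fold and 1.32-fold. Tspan5, another ADAM10 partner, fell by 0.20 in KO and 0.18 in WT. Of 21 shed membrane proteins, 11 rose and 2 fell in KO, and 12 rose and 2 fell in WT. Tnfrsf1a, a tumour necrosis factor receptor, was 1.93-fold higher in KO and 2.13-fold in WT, the growth factor Hbegf 1.83-fold and 1.97-fold, and the myeloid receptor Csf1r 1.72-fold and 2.48-fold. Of 21 matrix and barrier substrates, 9 rose and 5 fell in KO, and 10 rose and 3 fell in WT. Tenascin C (Tnc) was 3.17-fold higher in KO and 4.46-fold in WT, fibronectin (Fn1) 2.05-fold and 3.15-fold, and syndecan 4 (Sdc4) 2.75-fold and 3.09-fold. Brevican (Bcan), the proteoglycan of perineuronal nets, fell by 0.60 in KO and 0.46 in WT. Of 14 related genes without a numbered name, 2 rose in KO, and 4 rose and 1 fell in WT. The 2 that rose in KO, Adamtsl3 and Adamtsl4, rose in WT too, and encode ADAMTS-like matrix proteins that have no protease domain.

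Whether the injury change differed between genotypes was tested directly. None of the 75 genes was called in the difference of the changes (limma, 0% of all rows called), and 4 had an unadjusted p under 0.05. The 3 smallest belonged to Adamts4 (given above), Adam33 (difference 0.15, SE 0.06, unadjusted p = 0.0147, adjusted p = 0.779) and Adam2, a sperm surface protein (0.13, SE 0.06, unadjusted p = 0.0304, adjusted p = 0.779).

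KO and WT were compared after each procedure and over both. Adam9 was lower in KO in all 3 comparisons. Its log2 signals were 10.44, 10.56 and 10.65 in KO CCI (lowest, median, highest), against 10.71, 10.83 and 10.97 in WT CCI, and 10.15, 10.22 and 10.26 in KO sham, against 10.40, 10.43 and 10.51 in WT sham. Neither pair of groups overlapped. Between the injured groups, Adam9 was lower in KO than in WT (log2 difference -0.28, SE 0.04, adjusted p = 0.00103) and was the 1 gene of the 75 called, where 0.653% of all rows were called. Between the sham groups the difference was -0.24 (SE 0.05, adjusted p = 0.00348), 1 of 2 genes called with Adam33, where 1.28% of all rows were. Over both procedures it was -0.26 (SE 0.03, adjusted p = 4.77e-06), 1 of 3 genes called with Adam33 and Mmp16, where 3.16% of all rows were. Within title numbers 1 to 24 the difference after injury was -0.25 (adjusted p = 0.189) and within 25 to 42 it was -0.32 (adjusted p = 0.365). The sham difference was -0.23 within 1 to 24 (adjusted p = 0.202) and -0.26 within 25 to 42 (adjusted p = 0.568). Over both procedures it was -0.29 within 25 to 42 (adjusted p = 0.137). When only the 14 injured arrays were fitted, the adjusted p of Adam9 was 0.0837.

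Adam9 lies on chromosome 8 beside a row of other ADAM genes, Adam32, Adam5, Adam3 and Adam18, with Tm2d2 on the other side in the RefSeq annotation. None of the 4 ADAM neighbours was called for genotype in any comparison. Their signals were low, which limits what the array can resolve there. Adam3 and Adam5 lay below the array's own median on all 28 arrays. Adam18 (5.54 to 6.14) and Adam32 (5.76 to 6.05) lay near the array medians.

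Adam8 was called for genotype only without the 7 arrays with other-tissue signal, and is singled out here after its values were seen. Its log2 difference in injured cortex was then -0.53 (SE 0.10, adjusted p = 0.0218), beside -0.16 with all arrays (adjusted p = 0.652). Over both procedures it was -0.28 (adjusted p = 0.0227), beside -0.09 with all arrays (adjusted p = 0.691). Of the 7 arrays left out, 4 were WT CCI and 2 were KO CCI.

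Adam33 was lower in KO sham, where its signals of 6.13, 6.16 and 6.24 did not overlap the 6.25, 6.38 and 6.54 of WT sham (log2 difference -0.19, SE 0.04, adjusted p = 0.012). After injury the difference was -0.04 (adjusted p = 0.785), and over both procedures -0.12 (SE 0.03, adjusted p = 0.0149). The last was not called without the 7 arrays (-0.13, adjusted p = 0.0849), and the sham difference was not called when only the sham arrays were fitted (adjusted p = 0.0614). The sham difference was -0.19 within title numbers 1 to 24 (adjusted p = 0.245) and -0.20 within 25 to 42 (adjusted p = 0.651). That over both procedures was -0.12 within 1 to 24 (adjusted p = 0.246) and -0.12 within 25 to 42 (adjusted p = 0.611).

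Mmp16, a membrane-type MMP of the nervous system, was higher in KO over both procedures (log2 difference 0.16, SE 0.03, adjusted p = 0.00332). Its signals were 9.88, 10.03 and 10.19 in KO CCI, against 9.81, 9.90 and 9.96 in WT CCI, and 10.01, 10.10 and 10.20 in KO sham, against 9.89, 9.94 and 10.03 in WT sham, so both pairs overlapped. The difference was 0.15 after injury (adjusted p = 0.157) and 0.17 after sham (adjusted p = 0.0609). Over both procedures it was 0.18 within title numbers 1 to 24 (adjusted p = 0.0774) and 0.13 within 25 to 42 (adjusted p = 0.603). None of the TIMPs was called for genotype, and Timp1 differed by -0.12 after injury (adjusted p = 0.895) and -0.01 after sham (adjusted p = 0.995). Of the 21 matrix and barrier substrates, 2 were lower in KO after injury, the basement membrane protein Nid1 and the link protein Hapln4, and 3 over both procedures, with Hapln1 as the third. Of the 8 partner genes of the ADAM receptors, the potassium channels Kcna1 and Kcna2 were lower in KO over both procedures. These counts are to be read against the 0.653% of all rows called after injury and 3.16% over both procedures.

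Some cell type markers also differed between genotypes. Over all rows, 0.653% were called after injury, 1.28% after sham and 3.16% over both procedures. Of 6 endothelial markers, Cdh5 and Pecam1 were lower in KO after injury (log2 difference -0.49, adjusted p = 0.0197, and -0.34, adjusted p = 0.0228) and over both procedures. The mean of the 6 ranged from 8.74 to 9.05 in KO CCI, against 9.01 to 9.42 in WT CCI, and from 8.56 to 8.91 in KO sham, against 8.71 to 8.98 in WT sham. Of 6 oligodendrocyte markers, Mbp was lower in KO after injury (-0.42, adjusted p = 0.049). Gfap, 1 of 8 astrocyte markers, was 2.57-fold higher in KO sham than in WT sham (adjusted p = 0.0263). The other 7 were not called, and the median log2 difference of the 8 was 0.045. The list's mean, Gfap included, ranged from 10.57 to 11.09 in KO sham, against 10.49 to 10.63 in WT sham. Neurod6, 1 of 9 cortical neuron markers, was higher in KO over both procedures (0.35, adjusted p = 0.0194). The other 8 were not called, and the median of the 9 was -0.007. The part of these markers in the genotype differences was not tested.

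**Figure D5:**
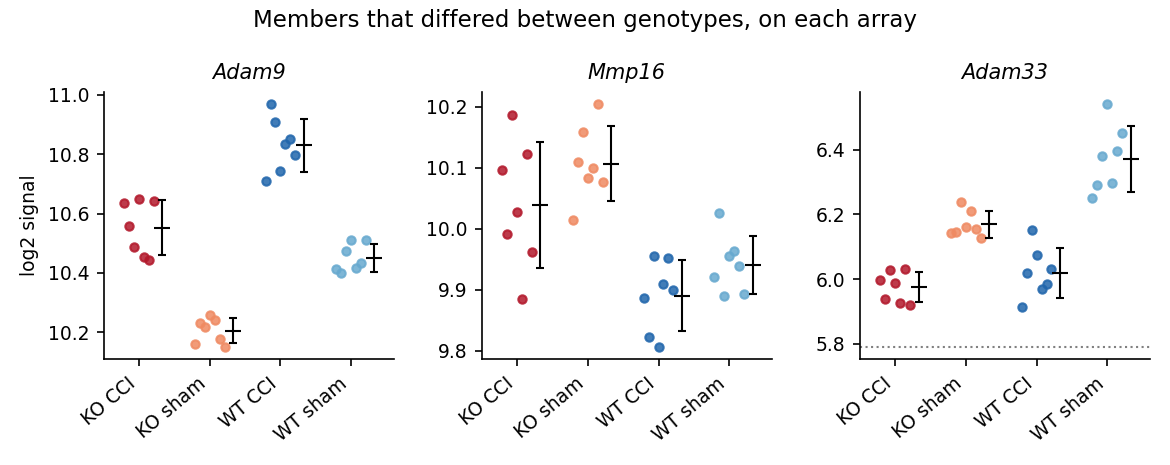
Log2 signal of the 3 genes called in a genotype comparison, on each array (points, 7 per group), with the mean and SD beside each group and a dotted line at 5.79, the lowest array median, where it falls in the range. Adam9 is lower in KO than in WT after both procedures, Adam33 in sham arrays, and the Mmp16 groups overlap.

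Sex was a term of the same model, female minus male over all groups. None of the 75 genes was called (limma, 0.487% of all rows called), and 4 had an unadjusted p under 0.05. The 3 smallest were those of Adam39 (log2 difference -0.16, unadjusted p = 0.0043, adjusted p = 0.427), Adam33 (0.08, unadjusted p = 0.0131, adjusted p = 0.759) and Adam26a (-0.14, unadjusted p = 0.0185, adjusted p = 0.839).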

How the data were processed

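Total RNA (100 ng, Trizol) was hybridised to Affymetrix MTA 1.0 arrays, per the labels' protocols. The deposited values, 72688 rows on 28 arrays, are log2 signal by their range. The authors' normalization and software are not given in the sources used here, and no further normalization was applied. After 6732 control rows were left out, 65956 rows were fitted with limma 3.58.1 in R 4.3.3 (group means, sex additive, Benjamini-Hochberg over all rows). The step was tested on simulated data. Symbols came from the platform annotation, updated through RefSeq. Python 3.11.15 made the tables with pandas 2.3.3 and the figures with matplotlib 3.10.9.

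The members, lists and naming rule were chosen with earlier results of these data known. The rule named 16 fixed members, up to 14 higher and 6 lower per injury comparison, every called member (up to 10) for genotype, the 3 smallest p-values where none was called, and up to 4 called genes per list. A member named in 1 injury comparison is given in both. Of 12 marker lists, those whose injury counts are not given in the results had these counts higher after injury in KO and WT: endothelial 2 and 3 of 6, mural 0 and 1 of 6, fibroblast 2 and 2 of 7, oligodendrocyte precursor 2 and 3 of 4, astrocyte 3 and 5 of 8, striatum 0 and 0 of 6, choroid plexus 1 and 0 of 8. Called lower in KO and WT were 1 and 1 endothelial, 1 and 0 mural, 2 and 2 fibroblast and 1 and 1 astrocyte markers. None was lower for oligodendrocyte precursor, striatum or choroid plexus. Alternatives included other scalings, filters, covariates, thresholds and leaving out each array. Fits within title numbers 1 to 24 or 25 to 42 and without 7 arrays were chosen after seeing the data. The labels do not call the title runs batches, and nothing says more of the animals' origin. Protein sequences were not used here. The number of arrays limits the precision.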

Additional observations from a re-analysis of the deposited data

Results flagged for a closer look

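For 31 named genes in 4 groups, 124 sets of 7 arrays were examined for an array far from the other 6, and 5 such arrays were found, where chance alone gives about 1 in 20. Mmp3 was 6.359 in WT CCI replicate 35, against 5.100 to 5.457 on the others. Mmp12 was 5.159 in WT CCI replicate 13, against 5.487 to 5.584. Mmp13 was 4.914 in KO CCI replicate 22, against 4.223 to 4.437. Adam18 was 5.757 in WT sham replicate 25, against 5.946 to 6.062. Adam26a was 3.905 in KO CCI replicate 23, against 4.203 to 4.420. Replicates 35, 13, 22 and 25 are among the 7 arrays that carried striatal or choroid plexus markers, whose part in these values was not tested.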

How the results depend on the processing

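No called change of a named member turned direction under any alternative run. The count of members called for injury stayed between 20 and 23 in WT and between 22 and 23 in KO when single arrays were left out, that for genotype was 1 after injury, 2 to 3 after sham and 3 to 4 over both procedures, and that for the difference between the injury changes and for sex was 0. When only the arrays compared were fitted, genotype gave 0 members after injury and 1 after sham. An adjusted p under 0.01 left 1 after sham. Title numbers 1 to 24 alone gave 0 members for genotype after injury and 0 after sham. Title numbers 25 to 42 alone gave 0 after injury, 0 after sham and 0 over both procedures, and 7 for injury in KO, all 7 higher, with 3 arrays per group. Among named members, title numbers 1 to 24 alone lost 6 calls for injury in KO and 3 in WT. Title numbers 25 to 42 alone lost 15 in KO and 4 in WT, not all of them given above. Without the 7 arrays with striatum or choroid plexus signal, genotype after injury gave 2, Adam9 (adjusted p rounding to 0.05, at the threshold) and Adam8. The cause of these shifts was not tested. Fits on part of the arrays also held fewer arrays, which cannot be told apart from the choice of arrays. Centring on array medians removed the Timp2 call in WT (adjusted p = 0.0656) and gave 24 calls in KO (16 higher, 8 lower) and 21 in WT (16 higher, 5 lower). Over all rows, centring moved the calls from 11017 to 11597 in KO and from 11094 to 11001 in WT. Calls over all rows were not counted for the fits on part of the arrays. No paired analysis was possible because the groups share no replicate numbers. The mean over all rows of a gene could not differ, since each member has 1 row. Values near or under the array medians, as for 42 members, limit what the array can resolve.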
